A study of Homo sapiens with 3 samples.

Results

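The 10 genes described here are MMP1, MMP3, MMP7, MMP8, MMP10, MMP11, MMP12, MMP13, MMP19 and MMP28, which encode secreted matrix metalloproteinases other than the gelatinases. They were chosen by gene symbol, as every probe set that the array's platform annotation gives to 1 of these symbols alone, and not by their signals. This took 19 probe sets of 41091 with a single symbol, and 10 genes of 19775. Total RNA of 3 human cell lines was measured on 3 Affymetrix expression arrays, 1 array per line, so no value below has a replicate, an SD or a p-value. All 3 lines derive from HT1080, an established fibrosarcoma line. The RECK line was stably transfected with a pZeoSV2(+) vector for RECK, a membrane-anchored glycoprotein known as a metalloproteinase inhibitor. The RECK/4NQ line received the same vector for RECK with 4 N-glycosylated asparagines replaced by glutamine, and the Zeo line was mock-transfected. The medium of all lines held Zeocin for selection, at 50 µg/mL, and 10% serum of fetal calves. Nothing in the labels says whether a line is 1 clone or a pool of transfected cells, and with 1 line per construct the transfected gene cannot be told apart from other differences between the lines.

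Matrix metalloproteinases are zinc-dependent enzymes that are secreted or membrane-bound as inactive proenzymes and cleave the extracellular matrix. Collagenases cut fibrillar collagen across its triple helix, stromelysins have a broad range of matrix substrates and can activate other proenzymes, and matrilysin is a small member that lacks the hemopexin-like domain. In fibroblasts and tumour cells, transcription of several of these genes is known to be induced by interleukin-1 and growth factors through AP-1 and ETS sites in their promoters, and RECK and the TIMP proteins restrain the enzymes.

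The values are MAS5 signals, an intensity in arbitrary units in which an estimate from mismatch probes has been subtracted from matched probes. The sum of signals was 11372200 on the RECK array, 12349800 on the RECK/4NQ array and 12517000 on the Zeo array. Over all genes, dim ones included, the log2 ratio of signals as deposited had a median of -0.20 when RECK was set over Zeo. It was -0.15 when RECK/4NQ was set over Zeo and -0.05 when RECK was set over RECK/4NQ. Ratios given below relative to the median of all genes use these medians. With signals raised to the floor described next, the medians were -0.05, 0 and 0, so the offset depends in part on dim genes. A signal of 12.3, the 40th percentile of all values on the 3 arrays, served as a floor, below which signals have no order. A gene, by its brightest probe set, was called if it differed at least 2-fold with both signals at or above the floor, or if 1 signal was below it and the other at or above 24.5, 2 times the floor. The spread given beside a ratio is the robust SD of log2 ratios over the 1000 genes closest to it in level, and so includes true differences between lines beside noise. RECK itself had a signal of 387 in the RECK line, 442 in the RECK/4NQ line and 264 in the Zeo line by the brightest of its 5 probe sets, and no source used here says whether that probe set reads the transfected sequence, so it does not check the labels. The signal summed over 10 mesenchymal markers was 21632 in RECK, 22546 in RECK/4NQ and 21507 in Zeo. VIM made up much of it, at 10704, 10611 and 10307 on these arrays, while THY1 was at 45.9, 50.7 and 47.6. Of the 10 markers 9 reached the floor in every line, and NT5E reached it only in Zeo. By its brightest probe set COL5A1 was at 493 in RECK, 92.0 in RECK/4NQ and 201 in Zeo and was called in every comparison. ENG was called lower in RECK/4NQ than in Zeo, and S100A4 higher in RECK than in RECK/4NQ. Of 8 epithelial markers 5 were below the floor on all arrays, including EPCAM, and 0 reached it in every line. GRHL2 reached it at 20.3 in RECK and 37.1 in Zeo, and was called at least 3.03-fold lower in RECK/4NQ than in Zeo. KRT14 reached it in RECK and RECK/4NQ, and CDH1 only in RECK/4NQ. The summed signal of the 8 was 72.6 in RECK, 56.6 in RECK/4NQ and 59.3 in Zeo.

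By the brightest probe set, MMP1, MMP3, MMP8, MMP11, MMP19 and MMP28 were at or above the floor in every line, which is 6 of 10 members where 62.7% of all genes were. MMP7 was so in 2 lines, and MMP10, MMP12 and MMP13 in none, which is 3 of 10 where 14.5% of all genes were below it throughout. MMP3 had a signal of 215 or more in every line. Only MMP28 passed 2-fold in any comparison, through a probe set whose ID marks it as able to match several transcripts, and 3 of its other 4 probe sets were below the floor on all arrays. Without probe sets of such IDs, MMP11 and MMP28 were below the floor in every line and MMP19 had no probe set left, so that MMP1, MMP3 and MMP8 were the members that reached it in every line. No member was called between the RECK and Zeo lines by its brightest probe set, with the arrays as deposited or under either other scaling, while with the floor at the 20th percentile 1 was (MMP7, higher in RECK).

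**Figure D1:**
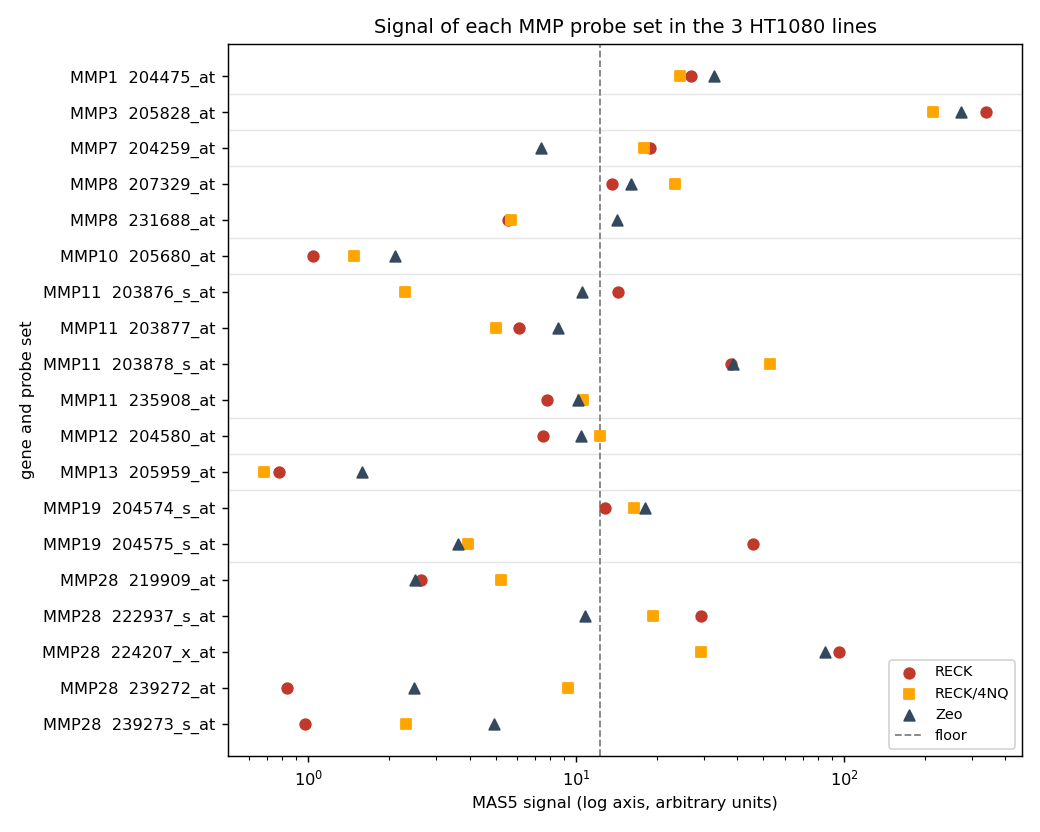
MAS5 signal (log axis, arbitrary units) of the 19 probe sets of the 10 genes on the RECK (circles), RECK/4NQ (squares) and Zeo (triangles) arrays, 1 point per array; the dashed line is the floor of 12.3. MMP3 lies between 215 and 340 on all 3 arrays, 8 probe sets lie below the floor on every array, and the probe sets of MMP19 and of MMP28 differ in their patterns.

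Of the stromelysins, MMP3 and MMP11 reached the floor in every line and MMP10 in none. MMP3, stromelysin-1, which cleaves proteoglycans, laminin and fibronectin and activates procollagenases, had a signal of 340 in the RECK line, 215 in the RECK/4NQ line and 274 in the Zeo line. The order was RECK, Zeo, RECK/4NQ, and neighbours in it differed by less than 1 spread as deposited. The log2 ratio was 0.31 for RECK over Zeo (spread 0.42), -0.35 for RECK/4NQ over Zeo (spread 0.36) and 0.66, or 1.58-fold, for RECK over RECK/4NQ (spread 0.46). Relative to the median of all genes these came to 0.51, -0.20 and 0.71, which are 1.21, -0.57 and 1.53 spreads. No pair of lines differed 2-fold in MMP3. MMP10, stromelysin-2, the close relative of MMP3, had signals of 1.04 in RECK, 1.48 in RECK/4NQ and 2.11 in Zeo, all below the floor. MMP11, stromelysin-3, which unlike most secreted members is activated inside the cell by furin-type proteases, had a signal of 37.7 in RECK, 52.7 in RECK/4NQ and 38.6 in Zeo by its brightest probe set, 203878_s_at, whose ID can match several transcripts. Its log2 ratio was -0.04 for RECK over Zeo (spread 0.59), 0.45 for RECK/4NQ over Zeo (spread 0.61), and for RECK against RECK/4NQ it was -0.48 (spread 0.66). The first of these had the opposite sign, at 0.15, both with arrays scaled to one median and after quantile normalisation. Of its other 3 probe sets, 203876_s_at reached the floor only in RECK, with 14.4 in RECK, 2.30 in RECK/4NQ and 10.5 in Zeo, and the rest lay below it on every array.

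The collagenases were near or below the floor. MMP1, interstitial collagenase, had a signal of 26.8 in the RECK line, 24.5 in the RECK/4NQ line and 32.7 in the Zeo line from its single probe set. All 3 signals lay within 3 times the floor. Its log2 ratio was -0.29 for RECK over Zeo (spread 0.69), -0.42 for RECK/4NQ over Zeo (spread 0.74), and for RECK against RECK/4NQ it was 0.13 (spread 0.77), and no neighbours in the order of the lines differed beyond their spread. MMP8, known as the neutrophil collagenase, had a signal of 13.7 in RECK, 23.4 in RECK/4NQ and 16.0 in Zeo. Its log2 ratio was 0.55 for RECK/4NQ over Zeo (spread 1.12) and -0.78, or 1.72-fold lower, for RECK over RECK/4NQ (spread 1.11). A second MMP8 probe set, 231688_at, had 5.54 in RECK, 5.73 in RECK/4NQ and 14.1 in Zeo, so it reached the floor only in Zeo. MMP13, collagenase-3, known from cartilage and bone, had signals of 0.775 in RECK, 0.683 in RECK/4NQ and 1.58 in Zeo, all below the floor.

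MMP7, matrilysin, typical of glandular epithelium, was at 18.8 in the RECK line, 18.0 in the RECK/4NQ line and 7.37 in the Zeo line. It was the 1 member whose brightest probe set crossed the floor between lines, with both transfected lines above it and Zeo below. Set against the floor, it was at least 1.54-fold higher in RECK and at least 1.47-fold higher in RECK/4NQ than in Zeo, neither of which is a call. Both comparisons use the same Zeo array, so they are not separate observations. With the floor at the 20th percentile, MMP7 was called higher in both. MMP12, the macrophage elastase, had signals of 7.51 in RECK, 12.2 in RECK/4NQ and 10.4 in Zeo, the second just under the floor. Of 6 leukocyte and macrophage markers with a probe set, 2 reached the floor in every line, and the summed signal of the 6 was 210 in RECK, 242 in RECK/4NQ and 191 in Zeo. CD14, which marks monocytes and macrophages, was below the floor on all arrays. The 2 that reached it were CSF1R, a macrophage growth factor receptor, at 152 in RECK, 151 in RECK/4NQ and 77.2 in Zeo, and CD3E, a T cell receptor subunit, at 26.6, 34.3 and 48.7 on the same arrays, and neither was called. The 1 called marker was ITGAM, a myeloid integrin subunit named with its values known, at 12.1 in RECK, 42.7 in RECK/4NQ and 32.6 in Zeo. It was at least 2.66-fold lower in RECK than in Zeo and at least 3.49-fold lower in RECK than in RECK/4NQ. The part of these markers in the MMP12 signals was not tested.

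MMP19, a member known from epidermis and blood vessel walls that does not belong to the collagenases or stromelysins, had 2 probe sets with different patterns. The brighter by mean log2 signal, 204574_s_at, had 12.8 in RECK, 16.4 in RECK/4NQ and 18.1 in Zeo. The other, 204575_s_at, had 45.6 in RECK, 3.94 in RECK/4NQ and 3.63 in Zeo. By 204574_s_at RECK had the lowest of the 3 signals, but no pair of lines differed beyond the spread. The log2 ratio there was -0.50 for RECK over Zeo (spread 1.03) and -0.14 for RECK/4NQ over Zeo (spread 1.21). For RECK over RECK/4NQ it was -0.36 (spread 1.16). By 204575_s_at RECK had the highest signal, at least 3.72-fold higher than in either other line. The mean of both put RECK above Zeo by a log2 ratio of 0.70 and above RECK/4NQ by 0.77, where the brighter one alone gave -0.50 and -0.36. Of 13996 probe sets below the floor in Zeo, 5.29% were at 2 times the floor or more in RECK, and of 15617 below it in RECK/4NQ, 6.36% were. Both IDs are of the kind that can match several transcripts of a gene or family, and which transcripts each one reads is not given in the sources used here.

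MMP28, epilysin, known from skin and from macrophages and activated by furin-type proteases, had 5 probe sets. The brightest, 224207_x_at, had a signal of 95.8 in RECK, 29.2 in RECK/4NQ and 85.2 in Zeo. RECK/4NQ stood apart from both other lines, which were close to each other. The signal was 2.92-fold lower in RECK/4NQ than in Zeo (log2 ratio -1.54, spread 0.52), and 3.28-fold higher in RECK than in RECK/4NQ (log2 ratio 1.71, spread 0.58). These ratios lay -2.67 and 3.04 spreads from the median of all genes, and RECK over Zeo had a log2 ratio of 0.17 (spread 0.50). A second probe set, 222937_s_at, had 29.3 in RECK, 19.4 in RECK/4NQ and 10.8 in Zeo, so RECK/4NQ was not the lowest there. By this probe set RECK was at least 2.39-fold higher than Zeo and 1.51-fold higher than RECK/4NQ, the direction of 224207_x_at in the second case but not a call. The other 3 were below the floor on all arrays. With all 5 averaged, the log2 ratio was -0.18 for RECK/4NQ over Zeo. That of RECK over RECK/4NQ was 0.46. Without probe sets that can match several transcripts, MMP28 was below the floor on every array. Which transcripts 224207_x_at reads is not given in the sources used here, so its signal may not be that of MMP28 alone. Among 10669 genes that reached the floor in every line and the 60th percentile of signals on average, KCTD18, TFAP2E and MFGE8 had the patterns most like that of 224207_x_at over the 3 arrays, at Euclidean distances of 0.050, 0.091 and 0.098 between centred log2 signals. KCTD18 had 69.0 in RECK, 20.3 in RECK/4NQ and 58.6 in Zeo. With 3 arrays such likeness is a weak description.

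**Figure D2:**
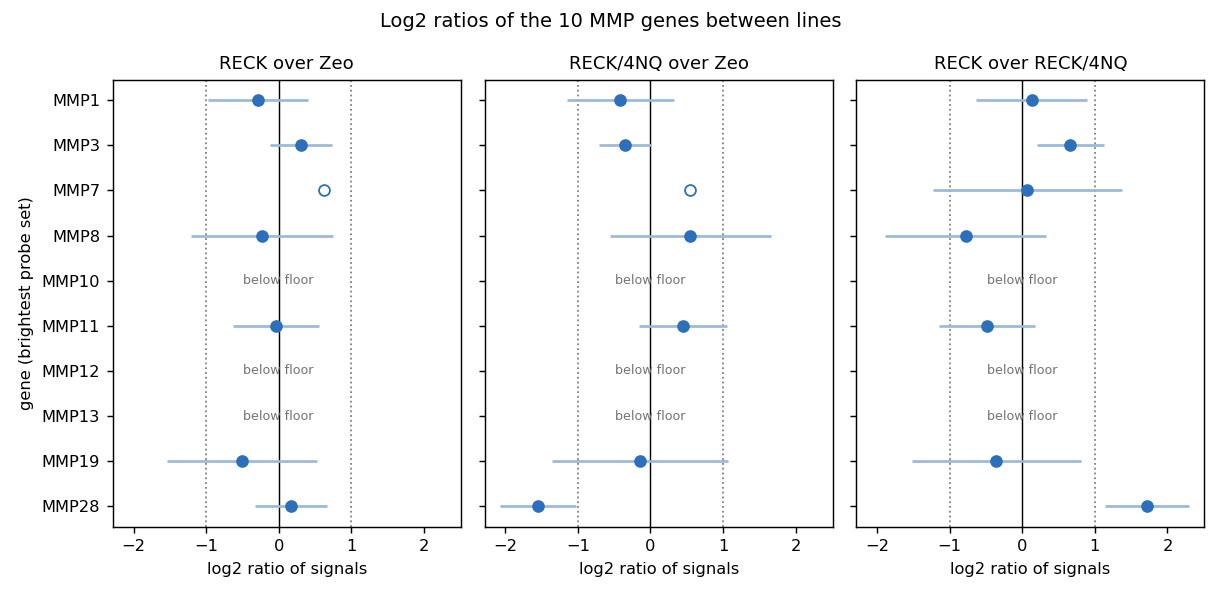
Log2 ratio of signals (horizontal axis) of the 10 genes by their brightest probe set in the 3 comparisons; filled points were measured on both arrays, bars are 1 robust spread of genes nearest in level on either side, open points are lower bounds set by the floor, and dotted lines mark 2-fold. MMP28 at -1.54 and 1.71 is the only gene past 2-fold, and MMP3 at 0.31, -0.35 and 0.66 has the narrowest bars.

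In the comparison of the RECK line with Zeo, 0 of the 10 genes were higher and 0 lower, where 4.03% of all genes were called higher and 6.7% lower. For RECK/4NQ over Zeo 0 were higher and 1 was lower, where 2.81% and 7.13% of all genes were. For RECK over RECK/4NQ 1 was higher and 0 lower, where 5.76% and 4.47% of all genes were. With 10 members these counts are near the background. With the arrays scaled to one median, the same members were called, while the background became 5.38% higher and 4.55% lower in RECK against Zeo, and 4.46% higher and 4.31% lower in RECK/4NQ against Zeo. The median floored log2 ratio of the members was 0 in all 3 comparisons, and that of all genes -0.05, 0 and 0 in the order given, with the members below the floor on both arrays entering at 0. By single probe sets, 2 of the 19 were higher and 0 lower in RECK than in Zeo, where 3.64% and 6.32% of all probe sets were. These are 204575_s_at of MMP19 and 222937_s_at of MMP28. The only MMP probe set lower in RECK/4NQ than in Zeo was 224207_x_at of MMP28, and 0 of the 19 were higher, where 6.48% and 2.95% of all probe sets were. Those higher in RECK than in RECK/4NQ were 204575_s_at and 224207_x_at, and 0 were lower, where 5.09% and 4.54% of all probe sets were.

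The members' genes on chromosome 11 lie side by side. In the RefSeq annotation of GRCh38, 9 coding genes follow each other with no other coding gene between them, from MMP7 through MMP20, MMP27, MMP8, MMP10, MMP1, MMP3 and MMP12 to MMP13, and 7 of the 10 members are among them. Within this run MMP27, MMP8, MMP1 and MMP3 reached the floor in every line, MMP7 in 2 lines, and MMP20, MMP10, MMP12 and MMP13 in none. MMP11 is on chromosome 22, MMP19 on 12 and MMP28 on 17.

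Promoter sequences from RefSeq on GRCh38.p14 were matched for MMP7, MMP8, MMP10 and MMP11, and not for MMP1, MMP3, MMP12, MMP13, MMP19 and MMP28. They are shown because AP-1 factors are known regulators of matrilysin and stromelysin genes and were measured on the same arrays. Each line gives the 100 bases just before the gene's start, 5′ to 3′ on the gene's strand, with the AP-1 element TGANTCA and the TATA box TATAAA in capitals. The windows are chr11:102530748-102530847 on the minus strand for MMP7, chr11:102724955-102725054 on the minus strand for MMP8, chr11:102780629-102780728 on the minus strand for MMP10 and chr22:23772749-23772848 on the plus strand for MMP11.
MMP7: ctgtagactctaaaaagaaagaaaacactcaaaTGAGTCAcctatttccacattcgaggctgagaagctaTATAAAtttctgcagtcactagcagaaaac
MMP8: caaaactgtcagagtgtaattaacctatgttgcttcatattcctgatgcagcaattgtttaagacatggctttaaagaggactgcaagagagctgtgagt
MMP10: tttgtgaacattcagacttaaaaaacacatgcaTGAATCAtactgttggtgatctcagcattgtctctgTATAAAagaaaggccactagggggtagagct
MMP11: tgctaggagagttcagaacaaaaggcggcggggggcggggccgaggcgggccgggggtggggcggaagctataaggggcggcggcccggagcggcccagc

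MMP7 and MMP10 shared a layout, with the AP-1 element from 67 to 61 bases before the start in both and a TATA box that began 30 bases before it in MMP7 and 31 in MMP10. Over the full window of 250 bases before to 50 after the start, on both strands, MMP8 held a TATAAA from 110 to 105 bases before its start and MMP11 held neither element. The PEA3 element AGGAAG, an ETS site, was found 2 times in MMP7, on the opposite strand, and not in the other 3. No motif match overlapped another. Of 35116 RefSeq promoters of this length, 7.71% held TGANTCA, 33.6% AGGAAG and 11.5% TATAAA. MMP7 crossed the floor between lines and MMP10 was below it on all arrays. A match is a run of letters, and binding was not measured.

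Genes of the lists below are given by their brightest probe set. For RECK over Zeo, 4.03% of all genes were higher and 6.7% lower. The shares were 2.81% and 7.13% for RECK/4NQ over Zeo, and 5.76% and 4.47% for RECK over RECK/4NQ. Of 19 transcription factors known at MMP promoters, all with a probe set, 0 were higher and 2 lower in RECK than in Zeo, 1 was higher and 0 lower in RECK/4NQ than in Zeo, and 0 were higher and 2 lower in RECK than in RECK/4NQ. The list's median log2 ratios in these comparisons were -0.30, 0 and -0.08. ETV4, the ETS factor also called PEA3, was at 266 in RECK, 673 in RECK/4NQ and 711 in Zeo, and CEBPA, a C/EBP factor, at 51.9, 79.7 and 136 on the same arrays. ETV1, a relative of ETV4, was at 20.8 in RECK, 55.7 in RECK/4NQ and 32.2 in Zeo, and ELF3, an epithelial ETS factor, at 36.4, 60.7 and 22.0. RECK thus had the lowest ETV4 signal of the 3 lines. The AP-1 subunit FOSL1, singled out after its values were seen, had 4531 in RECK, 5642 in RECK/4NQ and 6587 in Zeo, and FOS was below the floor on all arrays.

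Of 14 extracellular inducers with a probe set, 1 was higher and 2 lower in RECK than in Zeo, 1 higher and 3 lower in RECK/4NQ than in Zeo, and 1 higher and 2 lower in RECK than in RECK/4NQ, with list medians of 0, -0.08 and 0.10 in log2 ratio. IL1B, interleukin-1 beta, was at 260 in RECK, 2343 in RECK/4NQ and 1583 in Zeo. The RECK line thus had the lowest IL1B signal. Between these lines MMP3 and MMP1 differed by less than 2-fold, and a link with IL1B was not tested. The growth factor TGFA was at 704 in RECK, 427 in RECK/4NQ and 315 in Zeo. The other called genes were the cytokine TNF, at 10.9 in RECK, 59.4 in RECK/4NQ and 17.9 in Zeo, and the growth factors FGF2, at 24.0, 11.5 and 48.4, and PDGFB, at 80.1 in RECK and 66.0 in Zeo and below the floor in RECK/4NQ, all 3 below the floor on at least 1 array, hence outside the naming rule, and chosen after their values were seen. The cytokine IL6 was at 54.9 in RECK, 41.0 in RECK/4NQ and 92.9 in Zeo.

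Inhibitors and activators showed few calls. Of 11 inhibitors 1 was higher and 0 lower in RECK than in Zeo, 0 were called in RECK/4NQ over Zeo, and 1 was higher and 0 lower in RECK than in RECK/4NQ. The list medians were 0, -0.09 and 0 in log2 ratio. TIMP1, named with its values known, was at 4921 in RECK, 9116 in RECK/4NQ and 9692 in Zeo. It was 1.97-fold lower in RECK than in Zeo (log2 ratio -0.98, spread 0.27), just short of a call. The called gene was TIMP3, a matrix-bound inhibitor, at 200 in RECK, 78.0 in RECK/4NQ and 60.3 in Zeo by its brightest probe set. By 2 of its other 3 probe sets TIMP3 was also past 2-fold in RECK/4NQ against Zeo, at 5.33-fold and 2.34-fold higher, and the first of them was 16.1-fold higher in RECK against Zeo, so the count for RECK/4NQ over Zeo rests on the choice of probe set. Of 16 activators 0 were higher and 1 lower in RECK than in Zeo, 0 higher and 1 lower in RECK/4NQ than in Zeo, and 1 higher and 1 lower in RECK than in RECK/4NQ, with medians of 0, -0.06 and 0. FURIN, the protease known to activate MMP11, was singled out for its role with its values known and was at 272 in RECK, 244 in RECK/4NQ and 252 in Zeo. PCSK6, a protease of the furin family, was at 17.8 in RECK, 36.3 in RECK/4NQ and 42.9 in Zeo, and TPSAB1, a mast cell tryptase, at 47.0, 17.3 and 36.5.

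The list of 15 substrates holds matrix genes and the protease inhibitor genes SERPINA1 and SERPINA3. Of these 15, 0 were higher and 2 lower in RECK than in Zeo, and 0 higher and 4 lower in RECK/4NQ than in Zeo. In RECK against RECK/4NQ 1 was higher and 0 lower, and the list medians in the 3 comparisons were -0.32, -0.18 and 0 in log2 ratio. Tenascin, TNC, had a signal of 870 in RECK, 82.1 in RECK/4NQ and 436 in Zeo. At 1.995-fold higher in RECK than in Zeo (log2 ratio 0.996, spread 0.43), it was just short of a call there. SERPINA1, a serine protease inhibitor that several metalloproteinases inactivate, had 70.9 in RECK, 43.1 in RECK/4NQ and 118 in Zeo. The fibrillar collagen gene COL1A1, a collagenase substrate, had 139 in RECK, 189 in RECK/4NQ and 215 in Zeo and was not called, and is named for its role with its values known. Elastin, ELN, was at least 2.81-fold lower in RECK than in Zeo, the collagen gene COL1A2 at least 2.14-fold lower in RECK/4NQ than in Zeo, and the protease inhibitor gene SERPINA3 at least 2.98-fold lower in both, which were chosen after their values were seen.

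The 12 other matrix metalloproteinases with a probe set had more calls between RECK and Zeo than the 10 members, with 1 higher and 4 lower. Of all genes, 4.03% were higher and 6.7% lower. The difference between the 2 sets was not tested. Of the members 3 were below the floor on all arrays and could not be called, as was 1 of the 12 others. For RECK/4NQ over Zeo 1 was higher and 1 lower, and for RECK over RECK/4NQ 1 was higher and 2 lower, with medians of -0.51, 0.02 and -0.17 in log2 ratio. The gelatinase MMP9 was at 203 in RECK, 2306 in RECK/4NQ and 1947 in Zeo, and the glycosylphosphatidylinositol-anchored MMP25 at 20.5, 77.8 and 75.6. MMP17, also anchored in this way, was at 5.93 in RECK, 14.4 in RECK/4NQ and 76.0 in Zeo, and MMP26 at 11.9, 14.2 and 25.1. Both were below the floor in RECK, so their folds against Zeo are lower bounds, and both were chosen after their values were seen. MMP15, a membrane-type enzyme, was at 83.0 in RECK, 30.0 in RECK/4NQ and 12.7 in Zeo, the last just above the floor. The probe sets used for MMP9, MMP15, MMP17 and MMP25 have IDs that can match several transcripts, as that of MMP28 does. MMP15 and MMP25 each had another probe set, which was below the floor on all arrays, and MMP9 and MMP17 had no other.

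**Figure D3:**
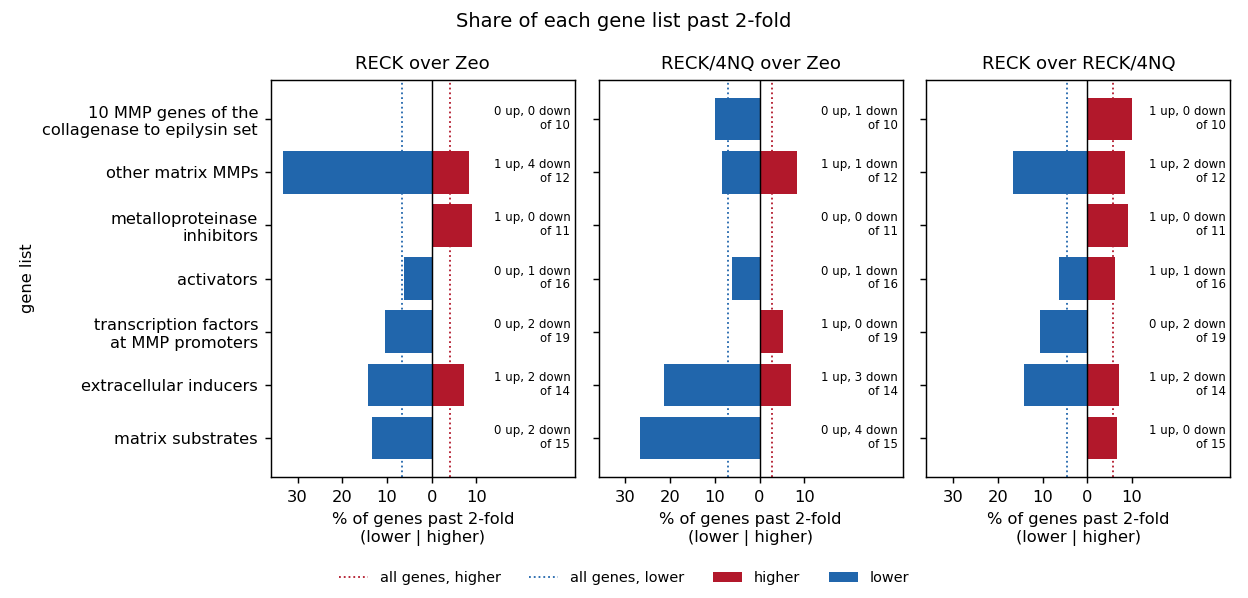
Share of each gene list past 2-fold, in percent of its genes with a probe set, lower to the left and higher to the right of 0, in the 3 comparisons; dotted lines are the shares of all genes called in each direction and the numbers are counts. The 10 genes have at most 1 call in a comparison, and the other metalloproteinases have 4 of 12 lower in RECK than in Zeo.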

How the data were processed

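The authors deposited an intensity for each probe set of each array, on a linear scale, made with MAS5 per the submitters' processing notes. The version of MAS5, its scaling target and a genome build for the arrays were not given in the sources used here. Total RNA, 8.1 to 15 µg of it, was turned into biotin-labelled cRNA per the labels' protocols. Each array held 54675 probe sets, of which 62 controls were left out, 41091 had 1 gene symbol, 1801 several and 11721 none listed. RefSeq for GRCh38 matched 41037 of the first kind, and 0 symbols needed an update.

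Signals were used without further scaling, floored and compared in Python 3.11.15 with pandas 2.3.3. With 1 array per line no test was run, and the number of arrays limits the precision. The code that makes the calls was checked on simulated data. The differences planted there were larger than 2-fold and in genes well above the floor. That check therefore does not cover false calls, or calls near the threshold or the floor. The named genes were all 10 members with every probe set, the 3 genes most like a called member among those above the 60th percentile of signals, and for each list, of its called genes at or above the floor in every line, the 4 with the widest range at most. Lists of muscle and endothelial markers were also run. The naming rule gave ACTC1 from the muscle list, at 137 in RECK, 85.4 in RECK/4NQ and 177 in Zeo and called lower in RECK/4NQ than in Zeo. It gave no gene from the endothelial list. Members and lists were chosen with earlier results of these data known. Alternatives were scaling to one median, quantile normalisation, a floor at the 20th or 60th percentile, the mean of a gene's probe sets, leaving out IDs ending in _x_at, _s_at or _a_at, and a 3-fold threshold.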

Additional observations from a re-analysis of the deposited data

How the results depend on the processing

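With the floor at the 20th percentile, 1 member (MMP7) was higher in RECK than in Zeo and 1 (MMP7) in RECK/4NQ than in Zeo, against 0 as reported, since the lower floor lets its Zeo signal count as measured. With the mean of a gene's probe sets, and with shared IDs left out, 0 members were lower in RECK/4NQ than in Zeo and 0 higher in RECK than in RECK/4NQ, against 1 (MMP28) in each, because MMP28 rests on 224207_x_at. At 3-fold, 0 were lower in RECK/4NQ than in Zeo. The counts of called members were otherwise as reported, under both scalings and the floor at the 60th percentile too. Of 177 single-member ratios recomputed, 172 moved by less than the spread, 5 (of MMP19 and MMP28) by more, and 0 called ones changed sign. These counts say little about stability. MMP10 and MMP13 stayed below the floor, so their ratios were 0 under every setting and could not move. A change of sign was counted only for called ratios, which were those of MMP28, and a ratio floored to 0 could not count. MMP7 became a call with the lower floor and still moved by less than its spread. Over all genes, calls for RECK over Zeo ran from 234 (3-fold) to 1697 (floor at the 20th percentile) higher and 329 to 2439 lower, against 796 and 1325 as reported. For RECK/4NQ over Zeo they ran from 119 to 1413 and 287 to 2685, against 556 and 1410, and for RECK over RECK/4NQ from 329 to 2318 and 192 to 1885, against 1139 and 883. The share of higher calls was 54.2% for RECK over Zeo with arrays scaled to one median against 37.5%, and 50.8% against 28.3% for RECK/4NQ over Zeo. No paired analysis was possible because each line has 1 array.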

Other observations

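Of 5 genes with a probe set that flank the metalloproteinase run on chromosome 11, YAP1, BIRC2, TMEM123 and DCUN1D5 reached the floor in every line and DYNC2H1 only in Zeo. TMEM123, a membrane protein gene, had a signal of 93.8 in RECK, 70.8 in RECK/4NQ and 168 in Zeo, and was called lower in RECK/4NQ than in Zeo. BIRC2, an inhibitor of apoptosis, was at 101 in RECK, 48.7 in RECK/4NQ and 86.6 in Zeo, and was called higher in RECK than in RECK/4NQ. DCUN1D5, on the other side and chosen with its values known, was at 653 in RECK, 676 in RECK/4NQ and 725 in Zeo. Of 14 genes of the run and its flanks with a probe set, 7 of them members, 8 reached the floor in every line and 4 in none. Of these 14, 0 were called between RECK and Zeo, where 4.03% of all genes were higher and 6.7% lower.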
